A study of Homo sapiens with 40 samples.

Results

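A set of 8 genes that mark epithelial cells, EPCAM, ESRP1, ESRP2, GRHL2, CLDN4, CLDN7, RAB25 and ST14, was followed in 786-0 cells, an established line of clear cell renal cell carcinoma. They were chosen by name, as epithelial genes that are often methylated and silent in mesenchymal-like cells. Earlier results of these data were known when they were chosen. The 8 genes stand among 60664 in the deposited table, and each matched 1 identifier. On GRCh38, with the Ensembl 104 annotation of the table, EPCAM (ENSG00000119888) lies on chromosome 2 at 47345158 to 47387601, ESRP1 (ENSG00000104413) on chromosome 8 at 94641074 to 94707466, and ESRP2 (ENSG00000103067) on chromosome 16 at 68229033 to 68238102. GRHL2 (ENSG00000083307) lies on chromosome 8 at 101492439 to 101669726, and CLDN4 (ENSG00000189143) on chromosome 7 at 73799542 to 73832690. CLDN7 (ENSG00000181885) lies on chromosome 17 at 7259903 to 7263983, RAB25 (ENSG00000132698) on chromosome 1 at 156061160 to 156070504, and ST14 (ENSG00000149418) on chromosome 11 at 130159782 to 130210362. ESRP2 and CLDN7 are on the minus strand and the others on the plus strand.

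Total RNA was sequenced from 786-0 cells of genotype SETD2 WT and SETD2 KO. Both lines were taken without drug at day 0, the only untreated group, and at day 5, 16 or 26 with 100 nM DAC, 10 nM BMN, or both drugs together. The sample titles give a day and a dose, and not how long the drug was present. Day 26 of DAC thus names a sample, not 26 days of exposure. Each of the 20 groups of line, treatment and day held 2 libraries, 40 in all. DAC is decitabine, an inhibitor of DNA methyltransferases. BMN is BMN673 (talazoparib), an inhibitor of PARP enzymes. SETD2 is the histone methyltransferase that places the trimethyl mark of H3K36. One WT and one KO line were used, and the labels do not say whether the KO line is a clone, so a difference between the lines cannot be told apart from a difference between those particular cells. A comparison of a treated group with the control also carries the days in culture. The labels do not say that the 2 libraries of a group came from separate cultures, so p-values measure only the spread between these samples, which may be technical.

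Epithelial cells are held together by tight and adherens junctions and by adhesion molecules such as EPCAM, and they splice many transcripts differently from mesenchymal cells. ESRP1 and ESRP2 are the RNA-binding proteins that direct epithelial splicing, and GRHL2 is a grainyhead-family transcription factor that activates junction and adhesion genes. CLDN4 and CLDN7 are tight-junction claudins, RAB25 is a GTPase of the RAB11 family that recycles membrane cargo to the apical surface, and ST14 (matriptase) is a membrane-bound serine protease. ZEB1 and SNAI2 are transcription factors that repress such genes during epithelial-mesenchymal transition. Gene counts show the amount of RNA only, so neither the splicing that ESRP1 and ESRP2 direct nor the DNA methylation of any gene was analysed here. In bulk RNA, fewer cells that express a gene and less RNA per cell cannot be told apart.

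The libraries held 17833960 to 22631101 counts each, and 22527 genes had enough of them to be tested. Values below are CPM, counts scaled to a common library size after TMM normalization, given for replicate 1 and replicate 2 in that order. Differences are log2 fold changes ± SE from edgeR's quasi-likelihood test, and a gene passed at a Benjamini-Hochberg adjusted p below 0.05 over all tested genes. Of the markers of the renal tumour line, ANGPTL4 fell as low as 0 CPM (median 1.14 CPM), and the others were present in every library. PAX8, the renal lineage factor, lay between 209.9 and 481.3 CPM, and the 8 markers summed to 4199 to 7191 CPM. VIM, also listed below as a mesenchymal gene, was the largest part of that sum, at 2978 to 5430 CPM.

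Of the 8 genes, 5 were tested: EPCAM, ESRP2, CLDN4, CLDN7 and ST14. ESRP1, GRHL2 and RAB25 fell under the filter on low counts. ST14 and CLDN7 met it through the DAC-treated libraries. ST14 had at least 10 counts in 22 of 24 libraries with DAC and in 0 of 16 without, and CLDN7 in 22 of 24 and 1 of 16. These 2 genes could hardly have been tested without being higher under DAC, so counts of genes that passed, and the p-values of these 2 genes for libraries with DAC against those without, are given as descriptions only.

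The 8 genes started from very different levels. Per kilobase of exon, CLDN4 was at 17.3 CPM in the WT control and 24.6 in the KO control. EPCAM was at 0.389 and 2.76, ESRP2 at 0.197 and 0.278, CLDN7 at 0.195 and 0.0221, and ST14 at 0.0498 and 0.0462 on the same scale. CLDN4 therefore lay above 87.0% of the tested genes in the WT control, and ST14 above 9.1%. The plot of levels by treatment and day shows 3 kinds of pattern. CLDN7 and ST14 were near 0 without DAC and present with it, EPCAM and ESRP2 were present throughout and highest at day 5 of DAC, and CLDN4 was abundant in every group and lowest at later days.

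**Figure D1:**
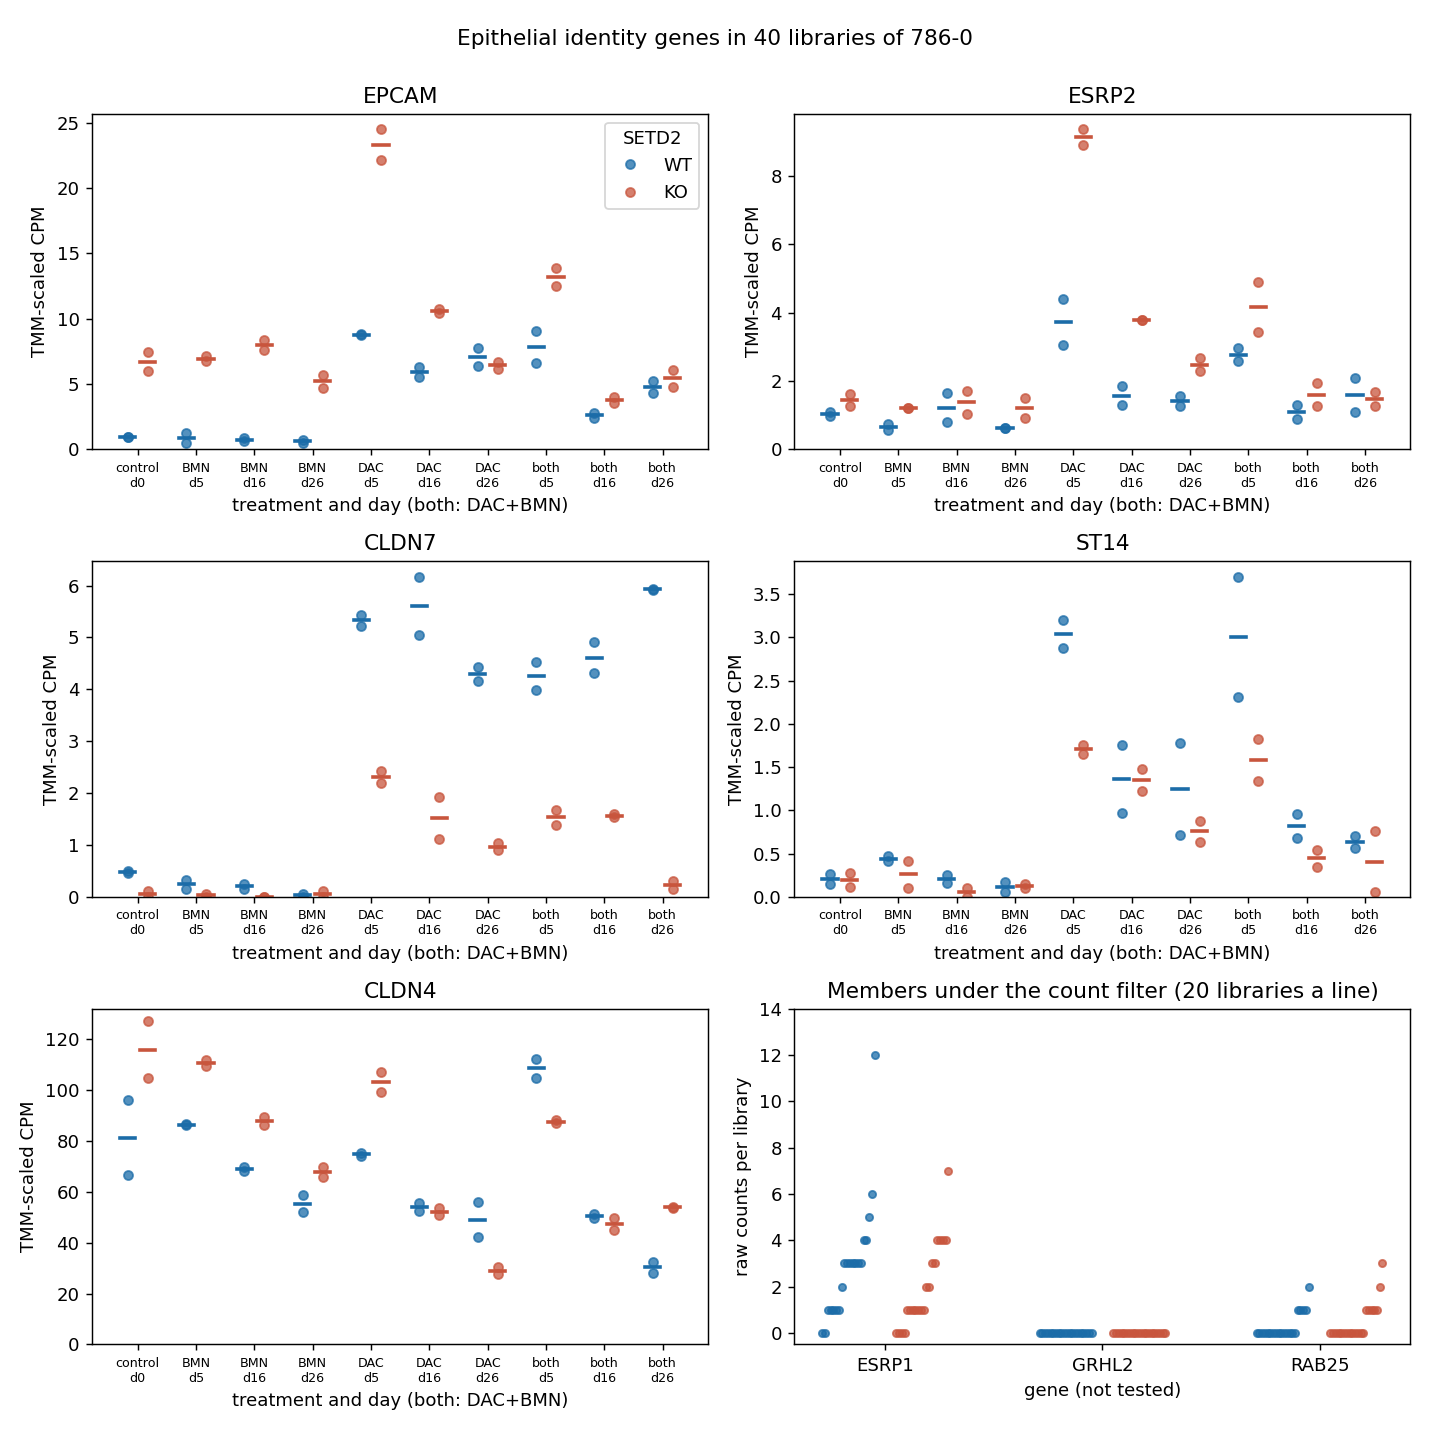
Level of each gene by treatment and day; points are single libraries and bars are the means of 2, in TMM-scaled CPM, with WT in blue and KO in red, while the last panel gives raw counts for the 3 genes that were not tested. EPCAM and ESRP2 peak in KO cells at day 5 of DAC (23.3 and 9.15 CPM), CLDN7 is highest in WT cells with DAC, and GRHL2 is at 0 in all 40 libraries.

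EPCAM encodes an adhesion glycoprotein of the epithelial surface. Without DAC it was low in WT cells and several-fold higher in KO cells, and DAC raised it in both lines at day 5. In the controls it measured 0.958 and 0.932 CPM in WT cells and 7.45 and 5.95 CPM in KO cells. The KO libraries lay above the WT libraries without overlap, a difference of 2.82 ± 0.25 (7.05-fold, adjusted p = 5.5e-11).

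At day 5 of DAC, EPCAM reached 8.79 and 8.73 CPM in WT cells and 24.5 and 22.1 CPM in KO cells. All 4 of these libraries lay above the controls of their own line. The rise was 3.20 ± 0.24 in WT cells (9.22-fold, adjusted p = 1.0e-12) and 1.80 ± 0.17 in KO cells (3.48-fold, adjusted p = 1.5e-10).

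The later days separated the lines. WT libraries held 5.51 and 6.30 CPM at day 16 and 7.75 and 6.36 CPM at day 26, still 2.63 ± 0.25 and 2.89 ± 0.25 above the control (adjusted p = 1.8e-10 and 1.8e-11). KO libraries held 10.4 and 10.7 CPM at day 16 and 6.12 and 6.69 CPM at day 26. KO cells at day 16 were thus 0.66 ± 0.18 above their control (adjusted p = 0.0033), and at day 26 they lay within the range of the control (-0.07 ± 0.19, adjusted p = 0.80). The day 16 call did not pass without replicate 2 of the KO control (0.475, adjusted p = 0.095).

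Between day 5 and day 26 of DAC, EPCAM fell by 1.86 ± 0.17 on the log2 scale in KO cells (adjusted p = 1.3e-10), and in WT cells the difference was -0.31 ± 0.17 (adjusted p = 0.22). Averaged over the 3 days, the response to DAC was smaller in KO than in WT cells, with a log2 difference between responses of -2.11 ± 0.28 from an interaction term (4.33-fold, adjusted p = 1.4e-06). In absolute level the order was the other way at day 5, since KO cells began higher. By day 26 of DAC the WT and KO libraries overlapped.

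Under BMN alone no difference of EPCAM from the control passed in either line. The 6 WT libraries ranged from 0.465 to 1.23 CPM and the 6 KO libraries from 4.69 to 8.34 CPM, and both ranges included the controls. The differences in WT cells were -0.11 ± 0.35, -0.37 ± 0.37 and -0.68 ± 0.39 at days 5, 16 and 26. In KO cells they were 0.05, 0.25 and -0.37 ± 0.19 (adjusted p from 0.14 to 1.0 over both lines). The difference between the lines in the response to BMN did not pass (adjusted p = 0.66).

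**Figure D2:**
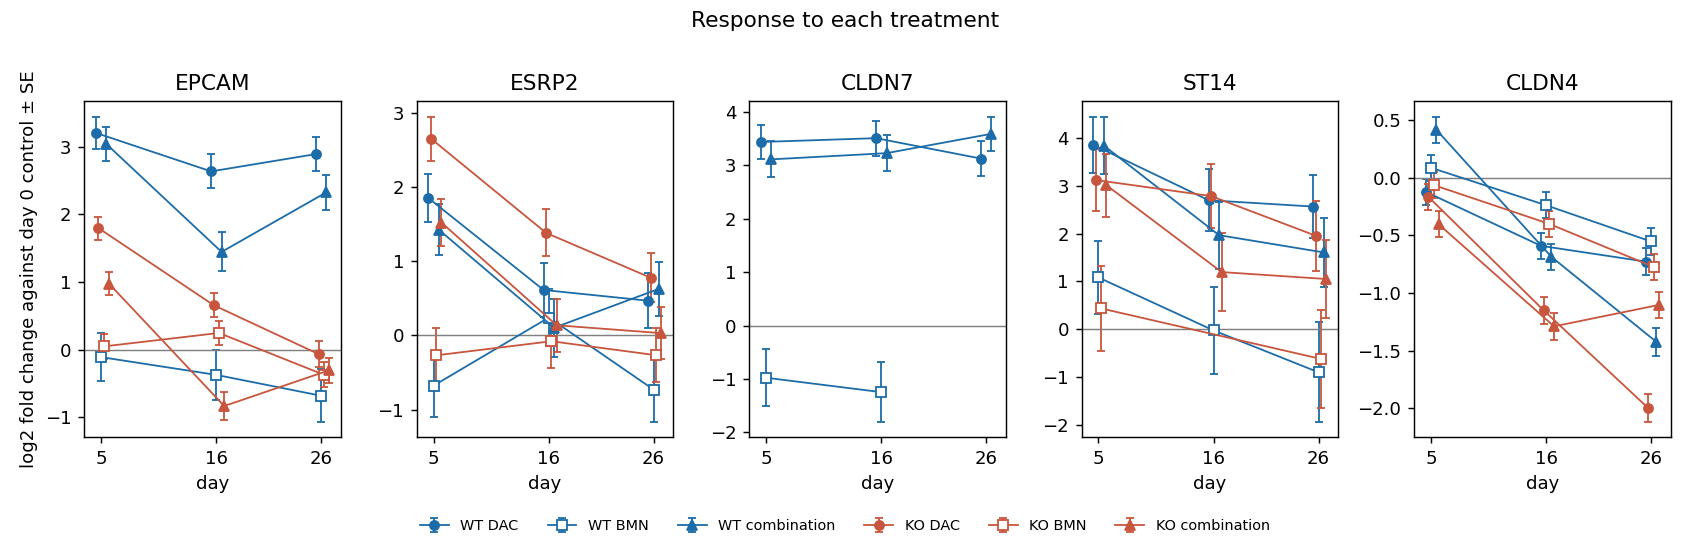
Log2 fold change against the day 0 control of the same line (y axis, ± SE) by day (x axis) for each treatment, with WT in blue and KO in red, filled symbols for DAC (circles) and the combination (triangles) and open squares for BMN; a point is left out where either group held 3 counts or fewer, which removes CLDN7 in KO cells. EPCAM and ESRP2 decline after day 5 of DAC in KO cells, and CLDN4 lies below its control at later days in both lines. ST14 in KO cells also lies lower at day 26 than at day 5 of DAC, a difference that did not pass (-1.164 ± 0.505, adjusted p = 0.071).

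ESRP2, one of the epithelial splicing regulators, rose at day 5 of DAC and then declined in both lines. It measured 0.958 and 1.09 CPM in the WT control and 1.62 and 1.27 CPM in the KO control. The difference between the lines did not pass there (0.50 ± 0.38, adjusted p = 0.38). At day 5 of DAC it measured 4.40 and 3.06 CPM in WT cells and 9.39 and 8.91 CPM in KO cells, with no overlap with the controls.

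The day 5 rise of ESRP2 was 1.86 ± 0.33 in WT cells (3.62-fold, adjusted p = 3.9e-05) and 2.66 ± 0.30 in KO cells (6.31-fold, adjusted p = 6.8e-09). At day 16 the KO libraries were at 3.79 and 3.77 CPM, 1.38 ± 0.32 above control (adjusted p = 6.6e-04), and at day 26 at 2.67 and 2.28 CPM (0.78 ± 0.33, adjusted p = 0.053). The WT libraries held 1.85 and 1.28 CPM at day 16 and 1.26 and 1.57 CPM at day 26, and neither day passed (adjusted p = 0.21 and 0.37). From day 5 to day 26 of DAC, ESRP2 fell by 1.39 ± 0.31 in WT cells (adjusted p = 0.0011) and by 1.88 ± 0.27 in KO cells (adjusted p = 1.6e-06).

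With BMN alone, ESRP2 lay between 0.546 and 1.69 CPM in the 12 libraries of both lines, and no day passed. The difference between the lines in the response to DAC did not pass (0.63, adjusted p = 0.42). ESRP2 shares 227 bases of exon with NFATC3 on the opposite strand. On its own strand it shares 113 with an unnamed gene and 74 with MIR6773, which had 0 counts. Counting was stranded, so reads in the overlaps on its own strand could be ambiguous.

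ST14, the gene of matriptase, was close to absent without DAC. The 8 WT libraries without DAC held 0.0517 to 0.475 CPM (median 0.206) and the 8 KO libraries 0 to 0.416 CPM (median 0.107). The difference between the controls did not pass (-0.10 ± 0.93, adjusted p = 0.98). At day 5 of DAC, ST14 measured 3.21 and 2.88 CPM in WT cells and 1.65 and 1.76 CPM in KO cells, all above every library without DAC.

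ST14 met the count filter through libraries with DAC, so the p-values in this paragraph are descriptions only. The day 5 rise of ST14 was 3.85 ± 0.59 in WT cells (adjusted p = 3.7e-06) and 3.12 ± 0.65 in KO cells (adjusted p = 2.4e-04). It stayed above control at day 16 by 2.70 ± 0.64 in WT cells, at 0.972 and 1.75 CPM, and by 2.78 ± 0.67 in KO cells, at 1.48 and 1.22 CPM (adjusted p = 0.0011 in each). At day 26 the rises were 2.56 ± 0.65 in WT cells and 1.95 ± 0.73 in KO cells (adjusted p = 0.0024 and 0.027). The WT call at day 26 rested on replicate 1 (1.77 CPM against 0.717 CPM in replicate 2) and gave 1.735 without it (adjusted p = 0.11). The KO call gave 1.391 without replicate 2 of the control (adjusted p = 0.22) and 1.702 without replicate 1 of the treated pair (adjusted p = 0.14).

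CLDN7, a claudin of the basolateral and tight-junction membrane, gave the clearest split between libraries with and without DAC, in WT cells. It met the count filter through libraries with DAC, so the split is a description only. In WT cells the 8 libraries without DAC held 0 to 0.504 CPM (median 0.202) and the 12 with DAC held 3.98 to 6.16 CPM (median 4.98). In KO cells the ranges were 0 to 0.110 CPM without DAC and 0.153 to 2.42 CPM with it. The groups did not overlap in either line, but in KO cells the nearest libraries held 2 counts without DAC and 3 with it.

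CLDN7 differed between the lines before treatment, at 0.504 and 0.466 CPM in the WT control against 0 and 0.110 CPM in the KO control. This was 19 against 2 counts, a ratio of 8.90 with a 95% counting interval of 2.15 to 78.8. The edgeR test of the difference, apart from this ratio, passed (adjusted p = 0.0026). The call was lost without replicate 1 of the KO control (adjusted p = 0.071). WT cells at day 26 of BMN held 1 count, 18.2 times fewer than the WT control with an interval of 2.89 to 756.1. The edgeR test of that difference also passed (adjusted p = 0.0012).

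In WT cells CLDN7 kept a similar level across days of DAC, with 5.22 and 5.43 CPM at day 5. Day 16 gave 5.04 and 6.16 CPM and day 26 gave 4.16 and 4.43 CPM. CLDN7 met the count filter through libraries with DAC, so the p-values of its rises are descriptions only. The rises were 3.44 ± 0.33, 3.51 and 3.13 (adjusted p = 3.7e-10, 1.2e-10 and 3.6e-09). The difference of day 26 from day 5 did not pass (-0.31, adjusted p = 0.39).

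In KO cells CLDN7 was lower at each day of DAC, at 2.42 and 2.19 CPM, then 1.92 and 1.12 CPM, then 1.03 and 0.903 CPM. Against the 2 counts of the KO control these are ratios of pooled counts of 42.2 (11.3 to 354.0), 27.6 (7.31 to 233.7) and 17.7 (4.57 to 151.9). The edgeR test, apart from these ratios and as a description only, gave adjusted p of 3.2e-09, 1.5e-07 and 7.4e-06. CLDN7 fell by 1.25 ± 0.32 from day 5 to day 26 (adjusted p = 0.0025). The difference between the lines in the response to DAC did not pass (1.27 ± 0.83, adjusted p = 0.41), and the KO control behind it held 2 counts. CLDN7 shares 38 bases of exon with ELP5 on the opposite strand and 269 with a gene on its own strand that had 0 counts.

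The RefSeq promoter table (GRCh38.p14) holds a window of 250 bases before to 50 bases after the start for 3 of the 8 genes: CLDN4, CLDN7 and RAB25. The sequences upstream of a listed start of CLDN7 and of RAB25 are shown. The first gene appeared under DAC, an inhibitor of methylation at CG dinucleotides, and the second stayed at 0 to 3 counts. The CLDN7 stretch lies within the span of the gene in the annotation used for counting, which reaches 7263983, and covers 0 bases of its exons. They are given 5′ to 3′ on the strand of the gene, with CG dinucleotides in capitals.

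CLDN7, chr17:7263214-7263463, minus strand: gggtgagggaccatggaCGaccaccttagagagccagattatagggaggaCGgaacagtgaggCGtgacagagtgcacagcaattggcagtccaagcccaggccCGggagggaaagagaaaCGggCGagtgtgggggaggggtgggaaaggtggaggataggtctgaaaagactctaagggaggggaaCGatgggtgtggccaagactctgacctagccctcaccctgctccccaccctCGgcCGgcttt
RAB25, chr1:156060910-156061159, plus strand: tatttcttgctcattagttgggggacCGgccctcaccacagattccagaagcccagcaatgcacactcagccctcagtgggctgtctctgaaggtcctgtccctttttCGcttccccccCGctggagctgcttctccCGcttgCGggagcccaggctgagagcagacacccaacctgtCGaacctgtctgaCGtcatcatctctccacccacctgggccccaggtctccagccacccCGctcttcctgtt

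Both windows were of ordinary CG content. CLDN7 held 10 CG and RAB25 9 CG in 300 bases, against a median of 14 over 35116 promoter windows of that length. At least as many CG stood in 56.4% and 58.4% of those windows. The motif CAGGTG or its complement CACCTG, the E-box that ZEB1 and SNAI2 bind, occurred 0 times in the CLDN7 window and 2 times in the RAB25 window, and in 20.6% of all windows. A second listed start of CLDN7, whose upstream bases lie in exons of the gene, held 30 CG and 5 E-boxes. The CLDN4 window held 5 CG and 0 E-boxes. These are matches of letters, not measurements of methylation or binding.

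RAB25, GRHL2 and ESRP1 gave too few counts for a test. GRHL2 had 0 counts in all 40 libraries, which allows up to 0.00381 CPM over the libraries together and 0.133 to 0.171 CPM in a single library. RAB25 had 16 counts in all, in 12 libraries, and never more than 3. It showed 5 counts in the 16 libraries without DAC and 11 in the 24 with DAC. These limits cover counting error only.

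ESRP1, the other splicing regulator, had 99 counts in 34 of 40 libraries. The median was 0.126 CPM in the 8 WT libraries without DAC and 0.140 CPM in the 12 with DAC, and 0.0497 and 0.137 CPM in the corresponding KO libraries. From day 5 to day 26 of DAC it went from 3 to 9 counts in WT cells and from 3 to 11 in KO cells, with no test. The highest library was replicate 2 of WT cells at day 5 of BMN, with 12 counts (0.546 CPM), and 4 counts were found in its partner. Per kilobase of exon ESRP1 was at 0.0158 CPM in the WT control, below the 0.197 of ESRP2.

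CLDN4 was the most abundant of the 8, and under DAC alone it passed only as lower than its control. It measured 66.6 and 96.0 CPM in the WT control and 105 and 127 CPM in the KO control, a difference of 0.51 ± 0.11 (1.42-fold, adjusted p = 6.1e-04). That call was lost without replicate 1 of the WT control (0.267, adjusted p = 0.11) and without replicate 2 of the KO control (0.373, adjusted p = 0.055). The WT control had the widest spread of the 20 groups for CLDN4 (81.3 ± 20.8 CPM, SD, n = 2).

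At day 5 of DAC, CLDN4 was at 75.3 and 74.1 CPM in WT cells and 107 and 99.2 CPM in KO cells, and neither line passed (adjusted p = 0.48 and 0.27). Without replicate 1 of the WT control the WT difference became -0.416 and passed (adjusted p = 0.0060). At day 16 it was lower by 0.59 ± 0.12 in WT cells, at 55.6 and 52.3 CPM, and by 1.15 in KO cells, at 53.5 and 50.9 CPM. At day 26 WT cells were at 42.3 and 55.8 CPM and KO cells at 27.6 and 30.2 CPM.

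The day 26 fall of CLDN4 under DAC was 0.73 ± 0.12 in WT cells (1.66-fold, adjusted p = 6.4e-06) and 2.0 ± 0.12 in KO cells (4.0-fold, adjusted p = 2.5e-15). Averaged over days, the response was lower in KO than in WT cells by 0.62 ± 0.13 (1.54-fold, adjusted p = 0.0014). This call was lost without replicate 1 of the WT control (-0.371, adjusted p = 0.097) or replicate 2 of the KO control (-0.477, adjusted p = 0.065).

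BMN alone was accompanied by a smaller decline of CLDN4 with time. KO cells measured 110 and 112 CPM at day 5. They measured 89.4 and 86.3 CPM by day 16, then 65.6 and 69.8 CPM by day 26, lower than the control by 0.40 at day 16 (adjusted p = 0.0086) and 0.77 at day 26 (adjusted p = 2.8e-06). WT cells at day 26 held 52.2 and 58.6 CPM, lower by 0.55 ± 0.12 (adjusted p = 6.6e-04). The day 16 call in KO cells was lost without replicate 2 of the control (-0.299, adjusted p = 0.15) or of the treated pair (-0.42, adjusted p = 0.059), and the WT call without replicate 2 of the control (-0.316, adjusted p = 0.092). No untreated cells were taken after day 0, so the part of time in culture in this decline was not tested.

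Counts of the 5 tested genes that passed under DAC are set here beside the share of all tested genes. At day 5, EPCAM, ESRP2, CLDN7 and ST14 were higher and none was lower in each line, where 15.6% of all tested genes were higher and 12.2% lower in WT cells, and 19.5% and 16% in KO cells. At day 16, 3 of the 5 were higher and 1 lower in WT cells (background 18.6% and 14.9%), and 4 were higher and 1 lower in KO cells (19.9% and 17.8%). At day 26, 3 were higher and 1 lower in WT cells (18.7% and 13.2%), and 2 were higher and 1 lower in KO cells (26.3% and 20.9%).

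From day 5 to day 26 of DAC, none of the 5 tested genes passed as higher in either line. ESRP2, ST14 and CLDN4 were lower in WT cells (background 12.6% higher and 9.14% lower). EPCAM, ESRP2, CLDN7 and CLDN4 were lower in KO cells (18.1% and 17.8%). ST14 fell by 1.29 ± 0.43 in WT cells (adjusted p = 0.031) and the call was lost without either day 5 library or without replicate 2 of day 26 (adjusted p from 0.074 to 0.28).

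Under BMN alone none of the 5 tested genes passed as higher. At days 5 and 16 in WT cells none passed in either direction, and few of all tested genes did (0.186% and 0.684%). At day 26 CLDN4 and CLDN7 were lower in WT cells (12% of all tested genes higher, 11% lower). In KO cells none passed at day 5 (11.7% of tested genes called), and CLDN4 alone passed, as lower, at day 16 (10.3% of tested genes higher, 15.2% lower) and day 26 (15.6% and 17.5%).

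DAC against BMN, sampled on the same days, showed the same split without the day 0 control. Averaged over days, EPCAM was higher under DAC by 3.30 ± 0.15 in WT cells (9.84-fold, adjusted p = 3.3e-19) and by 0.82 ± 0.10 in KO cells (1.77-fold, adjusted p = 2.5e-08). ESRP2 was higher by 1.37 ± 0.22 and 1.81 ± 0.18 (adjusted p = 3.1e-06 and 3.5e-10). ST14 in WT cells was higher by 2.98 ± 0.37 (adjusted p = 2.5e-08, a description only). CLDN4 was lower by 0.24 in WT cells (adjusted p = 0.0029) and 0.69 in KO cells (adjusted p = 1.1e-10). In all, 4 of the 5 tested genes were higher and 1 lower in each line, against 23.3% and 19.4% of tested genes in WT cells and 28.5% and 23% in KO cells. CLDN7 had 0 counts in KO cells at day 16 of BMN, so its fitted fold in KO cells is not given.

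The combination raised the same kind of genes at day 5. EPCAM was at 9.04 and 6.62 CPM in WT cells and 12.5 and 13.9 CPM in KO cells, above control by 3.04 ± 0.25 and 0.98 ± 0.17 (adjusted p = 3.0e-12 and 1.9e-05). ESRP2 was above control by 1.43 ± 0.34 and 1.52 ± 0.32, and ST14 by 3.84 ± 0.59 and 3.01 ± 0.66. CLDN7 was at 3.98 and 4.52 CPM in WT cells (3.12 ± 0.34) and at 1.38 and 1.67 CPM in KO cells, 28.0 times the KO control (7.39 to 237.1). Day 5 thus gave all 5 tested genes higher in WT cells (background 21.2% higher, 18.2% lower) and 4 higher and 1 lower in KO cells (27.1% and 22.2%).

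CLDN4 passed in opposite directions in WT and KO cells at day 5 of the combination, and the difference between the lines at that day was not tested. It was at 112 and 105 CPM in WT cells, 0.42 ± 0.11 above control (adjusted p = 0.0031), and at 86.9 and 88.1 CPM in KO cells, 0.41 below control (adjusted p = 0.0033). The WT call was lost without replicate 1 of the control (0.129, adjusted p = 0.43) or replicate 1 of the treated pair (0.339, adjusted p = 0.076), and the KO call without replicate 2 of the control (-0.304, adjusted p = 0.082). The response averaged over days did not pass the interaction test (-0.37 ± 0.13, adjusted p = 0.057), and it passed under 5 other settings of the fit, among them DESeq2 (-0.39, adjusted p = 0.038).

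At day 16 of the combination EPCAM was at 2.40 and 2.76 CPM in WT cells, above control by 1.45 ± 0.29 (adjusted p = 9.5e-05). In KO cells it was at 3.98 and 3.53 CPM, below every library of the KO control and lower by 0.83 ± 0.20 (1.78-fold, adjusted p = 0.0010). This was the only treatment and day at which EPCAM passed as lower than its control. At day 26 it was at 4.30 and 5.21 CPM in WT cells (2.33 ± 0.26, adjusted p = 4.3e-09) and at 6.05 and 4.79 CPM in KO cells, which overlapped the control (adjusted p = 0.23).

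ST14 at day 16 of the combination was at 0.679 and 0.953 CPM in WT cells (1.97 ± 0.70, adjusted p = 0.022, a description only). In KO cells it was at 0.546 and 0.342 CPM (adjusted p = 0.25). The WT call was lost without either control library or without replicate 2 of the treated pair (adjusted p from 0.051 to 0.14). CLDN7 in WT cells held at 4.91 and 4.32 CPM at day 16 and 5.93 and 5.92 CPM at day 26. In KO cells it was at 1.53 and 1.59 CPM and then at 0.295 and 0.153 CPM, which is 9 counts against 2 in the control (ratio 4.13, interval 0.855 to 39.3).

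Over the 5 tested genes, the combination at day 16 gave 3 higher and 1 lower in WT cells (background 22.8% and 20.1%) and 1 higher and 2 lower in KO cells (23.1% and 19.5%). At day 26 it gave 2 higher and 1 lower in WT cells (22.4% and 18.7%), and only CLDN4 passed in KO cells, as lower (20.4% and 14.3%). From day 5 to day 26 of the combination, EPCAM, ESRP2, CLDN4 and ST14 were lower in WT cells (18% of tested genes higher, 17.9% lower) and all 5 in KO cells (21.6% and 21.1%). In WT cells ESRP2 fell by 0.80 ± 0.31 (adjusted p = 0.045), a call lost with no filter, with DESeq2 and without any 1 of 3 of the 4 libraries (adjusted p from 0.051 to 0.44). EPCAM was lost without replicate 1 of day 5 in WT cells (-0.491, adjusted p = 0.099), which left CLDN4 and ST14. ST14 in KO cells was lost without replicate 1 of day 26 (-1.062, adjusted p = 0.15). Among these genes CLDN7 in KO cells fell by 2.73 ± 0.45 (adjusted p = 7.4e-06), the largest of the changes.

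Adding BMN to DAC lowered EPCAM in both lines when the 3 days were averaged, by 0.64 ± 0.11 in WT cells (1.56-fold, adjusted p = 2.7e-05) and by 0.85 ± 0.10 in KO cells (1.80-fold, adjusted p = 1.2e-07). In KO cells ESRP2 was lower by 1.04 ± 0.17 (2.06-fold, adjusted p = 2.3e-05), CLDN7 by 0.87 ± 0.22 (adjusted p = 0.0033) and ST14 by 0.87 ± 0.32 (adjusted p = 0.049). Tested by single days, the CLDN7 difference passed at day 26 only. The ST14 call was lost with the replicate number as a block (-0.865, adjusted p = 0.054) and without any 1 of 11 of the 12 libraries, with values from -0.57 to -1.01. ESRP2, CLDN7 and ST14 did not pass in WT cells (-0.26, -0.05 and -0.57), and a difference between the lines in this effect was not tested. In all, 1 of the 5 tested genes was lower in WT cells (10.2% of tested genes higher, 12.8% lower) and 4 in KO cells (10.9% and 11.8%).

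Day by day, in comparisons added after the values were seen, the largest differences for EPCAM were at day 16. It was at 2.40 and 2.76 CPM with both drugs and 5.51 and 6.30 CPM with DAC in WT cells, lower by 1.19 ± 0.21 (adjusted p = 7.7e-05). In KO cells it was at 3.98 and 3.53 CPM against 10.4 and 10.7 CPM, lower by 1.49 ± 0.19 (2.81-fold, adjusted p = 7.0e-07). The pairs did not overlap in either line.

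At day 5 EPCAM was lower with both drugs than with DAC in KO cells by 0.82 ± 0.16 (adjusted p = 2.0e-04), and in WT cells the libraries overlapped (adjusted p = 0.65). At day 26 it was lower in WT cells by 0.57 ± 0.18 (adjusted p = 0.039, lost in 6 of the alternative settings), and in KO cells it did not pass (adjusted p = 0.39). ESRP2 in KO cells was lower by 1.13 ± 0.26 at day 5 and 1.25 ± 0.31 at day 16 (adjusted p = 0.0015 and 0.0050). Each of these ESRP2 calls was lost without replicate 1 of the combination (-0.914 and -0.992, adjusted p = 0.053 and 0.11).

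CLDN4 differed in direction between lines and days. With both drugs it was higher than with DAC at day 5 in WT cells (0.54, adjusted p = 8.7e-04) and at day 26 in KO cells (0.90 ± 0.12, adjusted p = 1.2e-06), and lower at day 26 in WT cells (-0.70, adjusted p = 6.9e-05). CLDN7 at day 26 in KO cells was lower by 2.07 ± 0.48 (adjusted p = 0.0016), on 9 counts in the combination group. It did not pass in KO cells at day 5 (-0.589, adjusted p = 0.17) or day 16 (0.045, adjusted p = 0.95). Calls over the 5 tested genes were 1 at day 5, 1 at day 16 and 2 at day 26 in WT cells (background 12.3%, 12.2% and 12.2%), and 2, 2 and 2 in KO cells (22.3%, 16.3% and 23.9%).

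**Figure D3:**
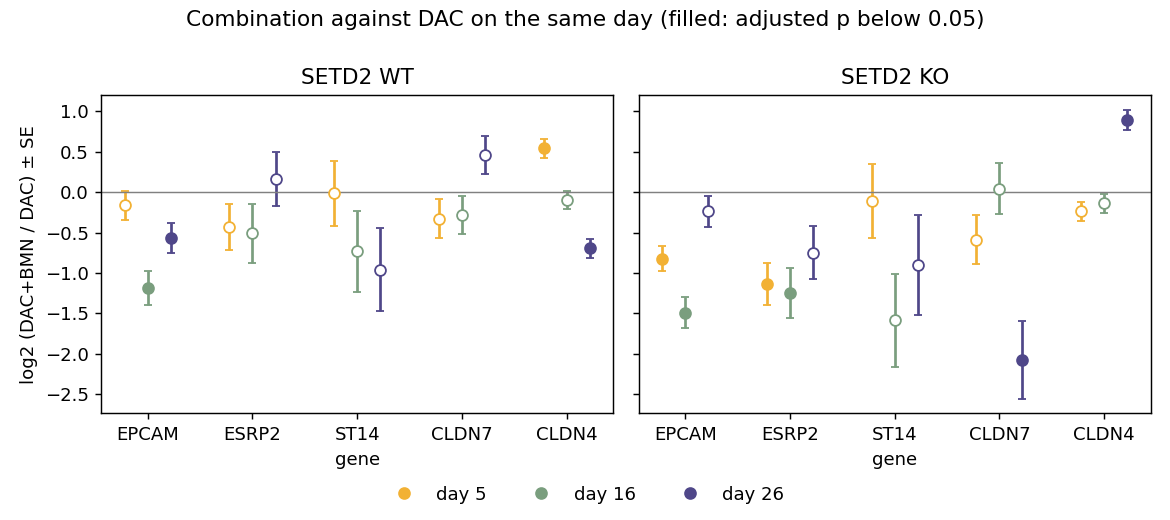
Log2 ratio of the combination to DAC on the same day (y axis, ± SE) for 5 genes (x axis) in WT cells (left) and KO cells (right), coloured by day, with filled points where the adjusted p was below 0.05. EPCAM is lowest at day 16 in both lines (-1.19 and -1.49), and CLDN4 lies on opposite sides of 0 at day 26.

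Between the lines, KO cells at day 0 had EPCAM and CLDN4 higher and CLDN7 lower, 3 of the 5 tested genes, where 13.4% of tested genes were higher and 13.9% lower. The response to DAC differed between the lines for EPCAM and CLDN4, both lower in KO cells (3.66% of tested genes higher, 5.17% lower). None of the 5 passed in the response to BMN (1.23% of tested genes called). In the response to the combination EPCAM alone passed, lower in KO cells by 2.32 ± 0.28 (5.01-fold, adjusted p = 1.9e-07; background 7.25% higher, 6.95% lower). The 3 responses of a line share the same control libraries.

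Set in order of their mean, the 20 groups formed a ladder with many ties. For EPCAM the order ran from KO cells at day 5 of DAC (23.3 ± 1.68 CPM, SD, n = 2), the combination at day 5 (13.2 ± 0.986) and DAC at day 16 (10.6 ± 0.205), all KO, down to the 4 WT groups without DAC (0.945 ± 0.0178 for the control and 0.591 ± 0.178 for day 26 of BMN at the bottom). Of the 19 pairs of neighbours in that order, 12 overlapped for EPCAM, 15 for ESRP2, 13 for CLDN4, 12 for CLDN7 and 17 for ST14. The gap between WT cells without DAC and all other groups was free of overlap for EPCAM.

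Across the 20 group means of log2 CPM, the tested genes other than CLDN4 were correlated to different degrees. Pearson's r was 0.87 for CLDN7 and ST14, 0.81 for EPCAM and ESRP2, and 0.71 for ESRP2 and ST14. Lower values of r were 0.52 for EPCAM and ST14, 0.49 for ESRP2 and CLDN7, and 0.35 for EPCAM and CLDN7. For CLDN4 r was between -0.37 and 0.13 with each of the other 4. These are descriptions over 20 groups that share lines and controls. CLDN7 and ST14 were both near 0 without DAC and met the count filter through libraries with DAC. Their high r follows in part from that filter.

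Among 19240 genes compared in the same way, those most like EPCAM were SLC22A3 (0.947), DOC2B (0.932) and KRT18 (0.929), the last a keratin of simple epithelia. Those most like ESRP2 were TNFRSF4 (0.927), ADGRG4 (0.915) and MIR548A1HG (0.893). Most like CLDN7 were RCOR2 (0.974), SLC12A8 (0.97) and SLC17A7 (0.969), and most like ST14 were MISP (0.967), MAP1LC3A (0.958) and TMC5 (0.958). Most like CLDN4 were PTGES2 (0.942), CDC34 (0.924) and EGLN1 (0.923). Each value is over the same 20 groups. Many of these genes were at 0 CPM in some library and low at their highest, such as RCOR2 (7.29 CPM), MAP1LC3A (3.10 CPM) and ADGRG4 (1.32 CPM). KRT18, SLC12A8, MISP and those most like CLDN4 were above 0 in every library.

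Other epithelial genes were taken in 6 lists by role, 44 genes of which 34 were tested. Some of the 34, such as CDH1 and TP63, had few or no counts in the controls. Such genes may have met the count filter through libraries with DAC, so counts and medians over the 34 are given as descriptions only. At day 5 of DAC, 18 of the 34 were higher and 1 lower in WT cells (15.6% and 12.2% of all tested genes), and 22 higher and 4 lower in KO cells (19.5% and 16%). The median log2 change over the 34 was 0.73 in WT cells and 0.89 in KO cells (0.75 with the 3 genes at 0 counts in the KO control set to the lowest fold their counts allow), against 0.02 and 0.04 over all tested genes. The gene lower in WT cells was CRB3, and those lower in KO cells were CRB3, ELF3, LSR and RAB11FIP1, named after their values were seen.

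Among the adherens-junction and desmosome genes, 4 of 7 tested were higher in WT cells at day 5 of DAC (CDH1, JUP, DSC2 and PPL). In KO cells 6 of 7 were higher, where DSP and DSG2 joined them. Over all tested genes 15.6% were higher in WT cells and 19.5% in KO cells. Counts by role are descriptions only, here and below. CDH1, E-cadherin, rose from 0.408 ± 0.0643 CPM to 17.4 ± 0.358 CPM in WT cells (SD, n = 2), by 5.39 ± 0.27. In KO cells it had 0 counts in both control libraries and 3.03 ± 0.472 CPM at day 5, at least 18.5-fold higher. CDH1 thus had no counts in the KO control, where EPCAM was higher than in the WT control.

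Matriptase works with a small network of surface proteases and inhibitors, and its 3 tested genes were higher at day 5 of DAC in both lines. The background was 15.6% of all tested genes higher in WT cells and 19.5% in KO cells. SPINT1, its Kunitz-type inhibitor, rose from 2.05 to 13.9 CPM in WT cells (2.76 ± 0.20) and from 1.56 to 20.3 CPM in KO cells (3.70 ± 0.21). SPINT2, a related inhibitor, rose by 0.90 ± 0.09 and 0.57 ± 0.09. PRSS8, the protease prostasin, rose by 2.68 ± 0.40 in WT cells and went from 2 to 80 counts in KO cells. By day 26 of DAC in KO cells SPINT1 was still higher (1.83 ± 0.24) and SPINT2 was lower than control (-1.34 ± 0.10).

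Among tight-junction genes 2 of 7 tested were higher in WT cells (CGN and CLDN1) and 4 in KO cells (CGN, CLDN1, OCLN and MARVELD2). The share of all tested genes that were higher was 15.6% in WT cells and 19.5% in KO cells. CGN, the junction plaque protein cingulin, rose by 2.42 ± 0.39 and 1.99 ± 0.40. CLDN3, a claudin close to CLDN4, did not pass in either line (0.39 ± 0.80 and 0.51 ± 0.89). Of the transcription factors, KLF5 and TP63 were higher in both lines. TP63 went from 0 to 16 counts in WT cells, at least 2.60-fold, and from 3 to 37 counts in KO cells. GRHL1, the relative of GRHL2, did not pass at day 5 (0.46 ± 0.21 and 0.22 ± 0.22), and OVOL1 and OVOL2 were not tested.

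Of 6 tested traffic and polarity genes, AP1M2 and LLGL2 were higher in WT cells and MAL2, MYO5B and CDS1 in KO cells. The background was again 15.6% of all tested genes higher in WT cells and 19.5% in KO cells. MAL2, a membrane-sorting protein, rose by 0.78 ± 0.18 in KO cells with 0.27 ± 0.16 in WT cells. Of the surface genes MUC1 and PROM2 were higher in both lines, ERBB3 and S100A14 in WT cells and GALNT3 in KO cells. ERBB3, a receptor of the EGFR family, rose by 2.12 ± 0.64 in WT cells and had 0 counts in the KO control and 6 at day 5.

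**Figure D4:**
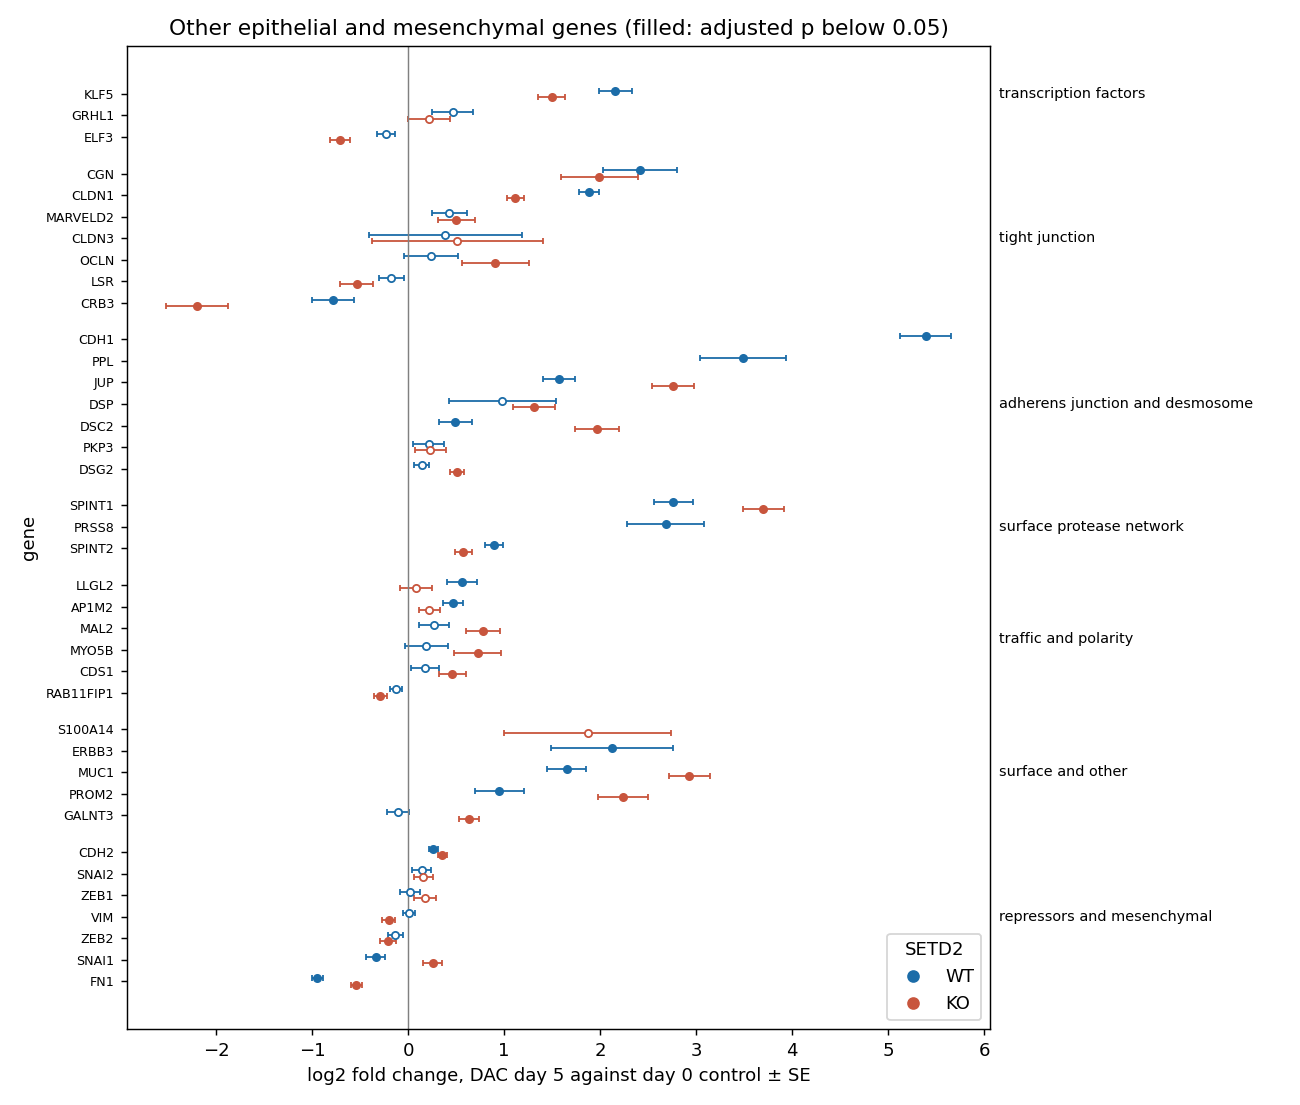
Log2 fold change at day 5 of DAC against the day 0 control (x axis, ± SE) for tested epithelial and mesenchymal genes (y axis) by role, with WT in blue and KO in red and filled points where the adjusted p was below 0.05; a point is left out where either group held 3 counts or fewer, which leaves out TP63 and EHF, CDH1, PPL, PRSS8 and ERBB3 in KO cells, and S100A14 in WT cells. One more listed gene is not drawn. CDH1 in WT cells (5.39) lies farthest to the right, and ZEB1 and SNAI2 lie near 0.

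The repressors and mesenchymal genes did not fall as a group. At day 5 of DAC, of 7 tested, CDH2 was higher and SNAI1 and FN1 were lower in WT cells (15.6% and 12.2% of all tested genes). In KO cells CDH2 and SNAI1 were higher and ZEB2, VIM and FN1 lower (19.5% and 16%). ZEB1 was at 28.0 CPM in the WT control and 28.4 CPM at day 5 (0.02 ± 0.11), and 19.1 and 21.6 CPM in KO cells (0.18 ± 0.12). SNAI2 differed from control by 0.14 ± 0.10 and 0.16 ± 0.10, and neither gene passed in either line. FN1, fibronectin, fell by 0.94 ± 0.06 in WT cells and 0.54 ± 0.06 in KO cells.

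Later, ZEB1 and SNAI2 were higher. At day 26 of DAC, ZEB1 was higher by 0.43 ± 0.11 in WT cells and 0.73 ± 0.11 in KO cells, and SNAI2 by 0.29 ± 0.10 and 0.77 ± 0.10. With the combination at day 16, when EPCAM was lowest among the DAC-treated groups of each line, SNAI2 was higher than control by 1.05 ± 0.10 and 1.5 ± 0.10 and ZEB1 by 0.57 ± 0.11 and 0.71 ± 0.11. Their part in the level of EPCAM was not tested.

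For the combination against DAC, averaged over days, 2 of the 34 other epithelial genes were higher (CLDN1 and GALNT3) and 16 lower in WT cells, where 10.2% of all tested genes were higher and 12.8% lower. In KO cells 1 was higher (CLDN1) and 15 lower (10.9% and 11.8%). CDH1 was lower by 2.04 ± 0.13 and 1.88 ± 0.23, CGN by 0.89 ± 0.21 and 0.67 ± 0.25, and SPINT2 by 0.41 ± 0.05 and 0.46 ± 0.06. The CDH1 value in KO cells rests on few counts, with 36 against 112 at day 5 and 16 against 48 at day 16. Of the 7 repressors and mesenchymal genes 6 were higher in WT cells and 5 in KO cells, and none was lower, against the same shares of all tested genes. SNAI2 was higher by 0.61 ± 0.05 and 0.51 ± 0.05.

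With BMN alone, none of the 34 other epithelial genes passed at day 5 in WT cells and ELF3 was lower at day 16 (0.186% and 0.684% of all tested genes called). In KO cells CLDN1 was higher and ELF3, SPINT2 and RAB11FIP1 were lower at day 5 (11.7% called). At day 16 CLDN1 and DSG2 were higher and ELF3, CRB3, PKP3, SPINT2 and LLGL2 lower (10.3% and 15.2%). At day 26, 9 of 34 were lower and CLDN1 higher in WT cells (11% and 12%), and 8 were lower and MARVELD2 higher in KO cells (17.5% and 15.6%). At day 26 SPINT2 was lower by 1.15 ± 0.10 and 1.26 ± 0.10 and SPINT1 by 1.45 ± 0.33 and 2.07 ± 0.40. CDH1 in WT cells, already low in the control, fell by 2.80 ± 0.72.

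Markers of other cells moved with DAC at low levels. The 6 markers of other epithelia (KRT5, KRT14, KRT20, ALB, CDX2 and SFTPB) summed to 0.0517 to 0.259 CPM in WT libraries without DAC and 0.627 to 2.91 CPM with it, and to 0.0498 to 0.551 CPM and 0.546 to 4.34 CPM in KO libraries. Of these, 5 of 6 stayed under 1 CPM in every library, and CDX2 had 1 count in all 40. The 5 blood markers summed to at most 0.496 CPM without DAC and 2.56 CPM with it, with HBB at 0 in every library. The 3 endothelial markers summed to at most 0.311 CPM without DAC and 3.09 CPM with it. Their part in the results was not tested.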

How the data were processed

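Per the labels, total RNA was made into libraries by KAPA RNA HyperPrep chemistry. The authors deposited 1 table of raw counts, which are whole and carry no scaling. Per the file headers, fragments were assigned to genes of Ensembl 104 (GRCh38) by featureCounts 1.5.0-p1, which used strand setting 1 and required a mapping quality of at least 20. The header names 76 alignments, of which the 40 of these samples are used here. Some of these names end in L1_1 and others do not, and the labels do not say what the ending stands for. In some groups both libraries were alike in it, such as WT cells at day 5 of the combination (L1_1) and KO cells at day 26 of DAC (no ending). A comparison with such a group may also carry it. The submitters' processing notes also name FastQC, Trimmomatic and Partek.

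All 40 libraries entered one fit (edgeR 4.0.16, R 4.3.3) with a mean per group and TMM scaling. The filterByExpr filter (minimum count 10) left 22527 genes. The quasi-likelihood F test was made for 30 planned comparisons and 6 added ones (the combination against DAC at each day in each line), with Benjamini-Hochberg adjustment within each. The SE is the log2 change divided by the square root of F. Settings were varied one at a time: RLE scaling, no filter, a minimum count of 30, a replicate block, an alignment-name term, DESeq2 1.42.0 and leaving out each library, which kept the dispersion trend of the full fit. Genes with 0 counts in a group were given folds against 3 counts per library. Intervals on ratios of counts are exact 95% intervals, and all intervals and limits cover counting error only.

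The naming rule took all 8 genes in every comparison, and those not described in one are given by count. Of the other epithelial genes, CDH1, OVOL1, OVOL2, GRHL1, SPINT1, SPINT2, PRSS8, CLDN3, ZEB1 and SNAI2 are always named, with the gene of each list that changed most at day 5 of DAC. The value of 1 gene of these lists is not reported here, though counts over the lists include it. The genes, lists and rules were chosen with earlier results of these data known.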

Additional observations from a re-analysis of the deposited data

Results flagged for a closer look

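For 3 results the response to a treatment differed between the lines by a test of that difference, an interaction term averaged over days 5, 16 and 26. The response of EPCAM to DAC was lower in KO than in WT cells by a log2 difference of -2.11 ± 0.28 (adjusted p = 1.4e-06), and its response to the combination by -2.32 ± 0.28 (adjusted p = 1.9e-07). These 2 share the control libraries, in which EPCAM was at 0.945 CPM in WT and 6.70 CPM in KO cells. The response of CLDN4 to DAC was lower in KO cells by -0.62 ± 0.13 (adjusted p = 0.0014), on controls of 81.3 and 115.8 CPM.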

How the results depend on the processing

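No difference that passed changed direction under any setting. Of 180 log2 values of the tested genes, 34 that did not pass changed sign under a setting, among them ST14 for the combination in KO cells at day 26 (1.05, and -1.898 without replicate 2) and CLDN7 for BMN in KO cells at day 26 (-0.14, and -3.28 to 3.12 with libraries left out). Of 1284 counts of calls over the settings, 101 lay beyond 1.5 times their main value. For the combination against DAC in WT cells at day 26, 2 of the 5 tested genes passed and 1 with RLE scaling, with no filter or with the alignment-name term. For the combination response between lines, 1 passed and 2 with no filter, a minimum count of 30, the alignment-name term, DESeq2 or the replicate block. Over all tested genes, BMN in WT cells called 42 at day 5 (64 with no filter, 70 with DESeq2) and 154 at day 16 (1348 with no filter, 498 with a minimum count of 30, 55 with the alignment-name term, 986 with DESeq2), and the BMN response between lines 276 (751 with no filter). The causes were not tested.

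With libraries left out in turn, counts over all genes ranged from 78 to 2613 for the BMN response, 1220 to 3256 for the DAC response and 1775 to 4765 for the combination response. For BMN they ranged in KO cells from 814 to 1698 at day 5, 2933 to 4329 at day 16 and 4854 to 6246 at day 26, and in WT cells from 9 to 117, 9 to 3978 and 2078 to 6072 at days 5, 16 and 26. For the combination against DAC they ranged in KO cells from 2985 to 4061, 1829 to 2267 and 3426 to 3725 at days 5, 16 and 26, and in WT cells from 1520 to 1901 at day 5 and 1757 to 1886 at day 16. They ranged from 5207 to 6487 for the combination in KO cells at day 26 and from 2760 to 4777 for day 26 against day 5 of DAC in WT cells. Counts over the 5 tested genes moved to 0 (BMN in KO cells, day 16), to 1 (BMN response, DAC response, BMN in WT cells at days 16 and 26, the combination against DAC in KO cells at days 5 and 16 and in WT cells at day 26), or to 2 (the combination response, the combination in KO cells at day 26, day 26 against day 5 of the combination in WT cells, from 4).

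The replicate numbers did not pair the samples in a constant way. Deviations of same-numbered libraries correlated from -0.66 to 0.77 over 190 pairs of groups, with a median of 0 and 56 over 0.1. Some groups thus shared deviations between their libraries, and the source was not tested. With the replicate block the combination response gave 2 of the 5 tested genes, and ST14 in the combination against DAC in KO cells no longer passed (adjusted p = 0.054). Counts of at most 10 a library limit CLDN7 and ST14 in groups without DAC, and with 2 libraries a group small differences cannot be resolved.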

Other observations

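Other epithelial genes also differed between the lines in their response to DAC, and they are named here after their values were seen. CLDN1, a further tight-junction claudin, was higher in the KO control by 2.60 ± 0.11 (adjusted p = 9.5e-20), and its response was lower by 1.23 ± 0.12 (adjusted p = 1.8e-09). Like EPCAM, CLDN1 thus started higher in KO cells. DSC2, a desmosomal cadherin, started lower in KO cells by 2.06 ± 0.23 (adjusted p = 5.4e-09), and its response was higher by 1.06 ± 0.25 (adjusted p = 0.0054). Each pair of values shares the control libraries, so a high start and a low response are not independent.

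CRB3, a polarity protein of the apical membrane, was lower than control at each day of DAC in both lines. It was at 12.5 ± 3.46 CPM in the WT control, 7.25 ± 0.865 CPM at day 5 and 5.17 ± 0.0413 CPM at day 26 of DAC. In KO cells it went from 4.98 ± 0.813 CPM to 1.08 ± 0.207 CPM and 0.574 ± 0.0609 CPM. The fall at day 26 was 1.27 ± 0.23 in WT cells and 3.10 ± 0.36 in KO cells.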
